A study of Arabidopsis thaliana with 8 samples.

Results

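The entries described here are the 962 of 34133 gene-table rows whose interval midpoint on Arabidopsis thaliana chromosome 4 lies between 2 and 6 Mb. AT4G08950 was left out by the rule. The window was chosen for the pericentromere and the heterochromatic knob of the short arm. The sources used here do not give their exact bounds, so the window may not hold either whole. Polyadenylated RNA was sequenced from whole Col-0 seedlings aged 10 days, grown on MS plates in long days of 16 h light at 22°C. The 8 libraries are WT replicates 1 and 2, mom1 replicates 1 and 2, and 1 each of lines labelled pial1/2, pial2, mom1pial2 and nrpe1. The sample labels name no alleles. The deposited data name the mutant mom-2 for mom1 replicate 1 and moml for mom1 replicate 2. Whether both carry the same allele is not stated. Each of 6 deposited tables sets 1 mutant library against 1 WT library. WT replicate 1 serves mom1 replicate 1, pial1/2 and nrpe1, while WT replicate 2 serves mom1 replicate 2, pial2 and mom1pial2, so tables on the same WT library are not independent of each other.

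Pericentromeres and knobs of Arabidopsis are packed with transposons and their remnants, and most of that sequence is kept silent by DNA methylation and repressive histone marks. MOM1 is a nuclear protein needed to keep many such loci silent without large changes of their DNA methylation. Its partners PIAL1 and PIAL2 resemble SUMO E3 ligases, and NRPE1 forms the catalytic core of Pol V, a plant RNA polymerase whose transcripts guide DNA methylation.

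Of the 962 entries, 596 carry the annotation biotype pseudogene, here called the pseudogene class. The annotation used gives transposon genes no class of their own and puts them there, without a family name for these entries. A further 298 are protein-coding, 53 have another biotype and 15 matched no annotated locus. The identifier has a transcript suffix in 294 entries, all of the pseudogene class, and none in 668, of which 302 are of that class. In all 8 libraries 444 entries (46.2%) were listed at 0, among them 330 of the pseudogene class and 71 of the protein-coding class. In the following text a level is FPKM (fragments scaled to transcript length and library size), and a difference is mutant minus WT of the same table on the log2(FPKM + 1) scale, which understates the change of low entries.

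The 16 entries called up in both mom1 tables, described below, fell largely into groups of near copies, so a pair of these is shown first. AT4G06615 and AT4G06718 shared 922 of 989 aligned bases (93.2%). A stretch of 200 aligned bases is printed from the TAIR10.1 build, AT4G06615 from the plus strand of chr4:3283784-3283983 and AT4G06718 from the minus strand of chr4:4018026-4018225. Capitals mark the 9 bases at which the copies differ.
AT4G06615: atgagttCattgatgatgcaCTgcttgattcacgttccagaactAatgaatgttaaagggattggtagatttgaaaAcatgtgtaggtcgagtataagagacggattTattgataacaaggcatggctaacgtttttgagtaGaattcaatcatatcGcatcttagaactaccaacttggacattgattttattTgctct
AT4G06718: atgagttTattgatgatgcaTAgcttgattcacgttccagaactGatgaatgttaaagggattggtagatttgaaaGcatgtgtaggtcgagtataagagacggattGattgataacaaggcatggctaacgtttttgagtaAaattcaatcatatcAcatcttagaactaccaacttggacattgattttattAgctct

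Beside each of these lies a second pair of copies. AT4G06517 lies next to AT4G06615, and AT4G06720 next to AT4G06718, so the 2 pairs stand side by side at both places. The 300 bases before the annotated starts of AT4G06517 (plus strand, chr4:3280201-3280500) and AT4G06720 (minus strand, chr4:4021477-4021776) are shown for their CG dinucleotides, in capitals, since CG is a main site of DNA methylation in plants. The third sequence stands before AT4G04293 (plus strand, chr4:2076532-2076831), the entry with the highest level among those called up.
AT4G06517: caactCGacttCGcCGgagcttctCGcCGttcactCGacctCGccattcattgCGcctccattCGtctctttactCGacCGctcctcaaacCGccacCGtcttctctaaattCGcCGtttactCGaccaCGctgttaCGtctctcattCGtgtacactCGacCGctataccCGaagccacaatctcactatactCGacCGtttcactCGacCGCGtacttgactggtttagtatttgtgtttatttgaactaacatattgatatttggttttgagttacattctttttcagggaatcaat
AT4G06720: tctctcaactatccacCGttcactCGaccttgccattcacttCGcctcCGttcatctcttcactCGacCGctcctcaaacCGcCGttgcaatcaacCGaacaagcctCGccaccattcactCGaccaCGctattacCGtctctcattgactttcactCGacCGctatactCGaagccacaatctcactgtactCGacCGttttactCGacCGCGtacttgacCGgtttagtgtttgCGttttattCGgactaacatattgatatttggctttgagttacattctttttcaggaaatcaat
AT4G04293: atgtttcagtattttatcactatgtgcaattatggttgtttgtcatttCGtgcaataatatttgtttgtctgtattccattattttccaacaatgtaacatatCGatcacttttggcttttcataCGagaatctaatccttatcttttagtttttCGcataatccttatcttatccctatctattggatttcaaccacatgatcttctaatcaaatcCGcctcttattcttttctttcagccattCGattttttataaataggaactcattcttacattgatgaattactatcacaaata

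The windows before AT4G06517 and AT4G06720 held 27 and 24 CG dinucleotides and were identical at 240 of 291 aligned columns (82.5%). At least 24 CG dinucleotides were found before 9 window loci (1.02%) and before 0.33% of all nuclear genes. Before AT4G04293 there were 6, which is also the median over the window loci, over all nuclear genes and over the 16 entries called up, whose counts ran from 1 to 27. The motif TATAAA, searched on both strands, was present in 4 of these 16 windows, against 32.1% of the pseudogene class of the window, 57.0% of its protein-coding genes, 41.5% of all window loci and 49.9% of all nuclear genes. The annotated start of a pseudogene is not a mapped transcription start, so the windows are a description of sequence only.

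In WT the pseudogene class was nearly silent. Entries with at least 1 FPKM numbered 7 of 596 in each WT library, 15 in mom1 replicate 1, 18 in mom1 replicate 2 and 18 in mom1pial2. The count was 9 in pial1/2, 6 in pial2 and 6 in nrpe1. The summed level of the class was 43.4 FPKM for the first and 50.1 for the second WT library, and it stood at 529.5 and 309 in mom1 replicates 1 and 2 and at 311 in mom1pial2. It was 333 in pial1/2, 71.0 in pial2 and 118 in nrpe1. AT4G04293 alone made up much of that: without it, the sums were 40.3 and 48.7 in WT, 110.0 and 106 in mom1, 102 in mom1pial2, 58.4 in pial1/2, 49.4 in pial2 and 41.1 in nrpe1. Without that entry the mom1 and mom1pial2 libraries lay above both WT libraries, pial1/2 lay above them by less, and pial2 and nrpe1 lay near or within the range of WT. In such bulk samples, more cells with a transcript and more transcript per cell cannot be told apart. The protein-coding class showed no such separation, with between 151 and 161 entries at 1 FPKM or more in each library.

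In the mom1 libraries more window entries were higher than lower, a split that low WT levels favoured. A difference of -1 or less needs at least 1 FPKM in WT. Of the 596 pseudogene-class entries, 7 had that in each WT library. Silent entries can only rise, so the split in this and the other tables is no support by itself. Differences of at least 1 were found for 16 entries higher and 0 lower in the mom1 replicate 1 table (all entries, 0.627% higher and 0.372% lower), and for 16 higher and 2 lower in the replicate 2 table (0.686% and 0.58%). Higher by at least 1 in both tables were 11 window entries, and lower were 0, against 0.27% and 0.0498% of all entries. The median difference over the window was 0 in each of the 6 tables, as it was over all entries. The authors' deposited tables call 27 entries up and 3 down among 244 tested for mom1 replicate 1 (background 0.999% up and 1.12% down), and 18 up and 4 down among 215 tested for replicate 2 (0.979% and 1.36%). Those shares were 11.1% and 8.37% for entries called up, against 6.23% and 4.84% in the other pericentromeric windows and 0.425% and 0.588% on the chromosome arms. Higher by at least 1 were 1.66% of all window entries in each table, against 1.64% and 1.33% in the other pericentromeric windows. In both tables at once the shares were 1.14% and 1.04%. The pseudogene class made up 596 of 962 entries here and 3079 of 6162 there. Of its tested entries, 53.3% and 55.2% were called up here, against 43.9% and 37.9% there. Of all its entries, 1.85% in each table were higher by at least 1, against 1.62% and 1.53%. The differences between these regions were not tested. An entry silent in WT was tested by the authors only where the mutant library had reads, so these shares are read beside the counts over all entries.

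Both mom1 tables, which share no library, call 16 entries up and 2 down, of 210 window entries tested in both (background 0.518% up and 0.25% down). Of the 16, 14 were of the pseudogene class, 1 was protein-coding and 1 was a noncoding RNA. The identifier had a suffix in 7 and none in 9. Within the pseudogene class the calls were spread over both kinds of identifier, with 7 of 294 entries with a suffix and 7 of 302 without one. The mom1 replicate 1 table called 13 entries with a suffix and 11 pseudogene-class entries without one up, and the replicate 2 table called 7 and 9. Where a locus is split into an entry with and an entry without a suffix (59 loci in the window), none of its entries was called in any table.

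A further 11 entries were called up in the mom1 replicate 1 table but not in the replicate 2 table. Of the 27 window entries called up in replicate 1, 16 were shared, and over all entries 110 of 222 were shared. The lack of overlap is thus not particular to the window. Of these, 10 had a higher level than WT in replicate 2 as well and 8 were not tested there by the authors. Only 2 of the 11 reached 1 FPKM in mom1 replicate 1. Low FPKM values move in steps of 1 fragment, and the step of mom1 replicate 1 was 0.664 times that of its WT partner, which means deeper sequencing, while in the other 5 tables the ratio was between 0.993 and 1.13. Its part in the larger number of calls was not tested.

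Across the 4 libraries of the mom1 comparison, limma was fitted to 20564 entries with at least 1 FPKM in at least 1 library, 194 of them in the window. Of the 21 pseudogene-class entries fitted, 13 reached 1 FPKM in mom1 only and 1 in WT only, so the fitted members of that class had to differ and their number is no support. By limma, 3 window entries rose and 0 fell at a Benjamini-Hochberg adjusted p below 0.05, against 0.0875% up and 0% down over all entries fitted. At an unadjusted p below 0.05 the counts in the window were 21 and 3. The 3 were AT4G04293, AT4G06615.1 and AT4G06718. AT4G06615.1 and AT4G06718 were among the 13 that reached 1 FPKM in mom1 only, so their calls are no support either. With no minimum FPKM, limma gave each of the 3 an adjusted p of 0.44. No window entry passed when the libraries were fitted without pairing (limma, 0 entries adjusted, 15 up and 1 down unadjusted). The limma adjusted p of these 3 then lay between 0.182 and 0.282. The cause of that loss was not tested. Nothing in the labels says that replicates came from separate cultures, so the p-values measure only the spread between these libraries, which may be technical.

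**Figure D1:**
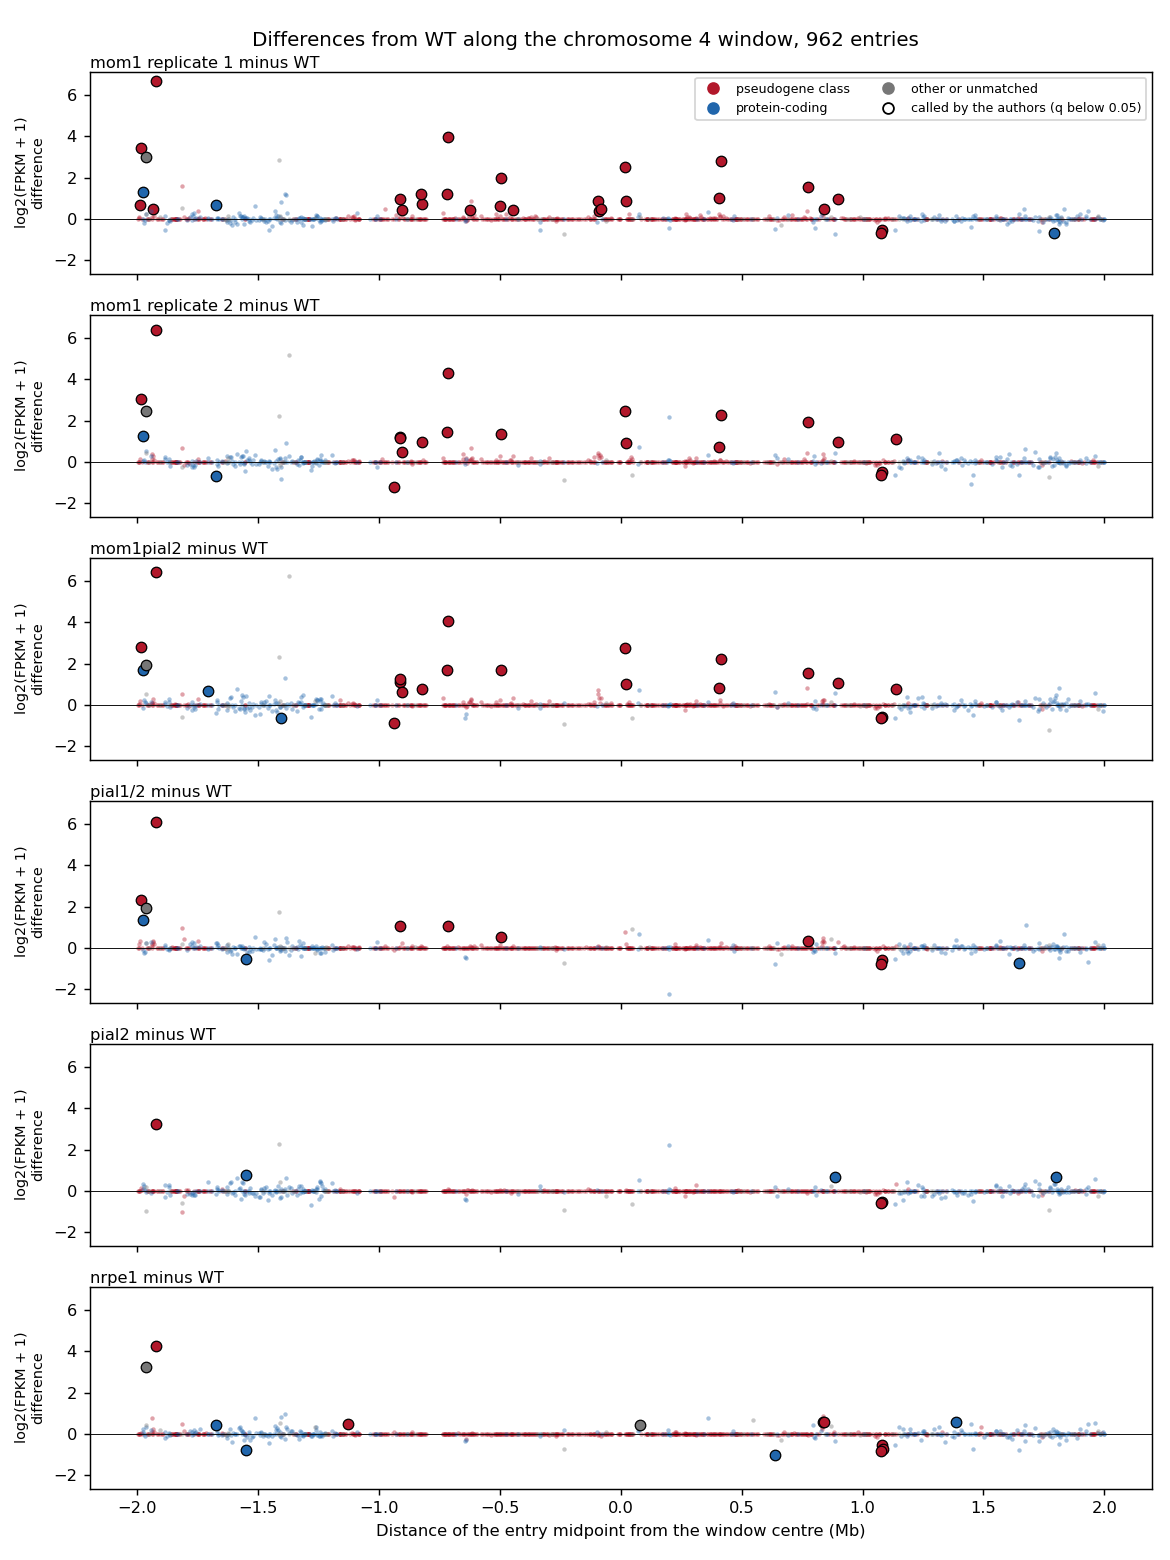
Difference from WT on the log2(FPKM + 1) scale (vertical axis) against distance of each entry's midpoint from the window centre in Mb (horizontal axis), in 1 panel per table, with 1 point per entry and large outlined points for entries the authors called. The called points above 0 are mostly of the pseudogene class in the panels of mom1 and mom1pial2, AT4G04293 is the highest point in each panel, and a pair of entries right of the centre, AT4G08115.1 and AT4G08100.1, lies below 0 in all 6 panels.

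The calls up were not spread evenly along the window. By 0.5 Mb bins from 2 Mb onward, entries called up in both mom1 tables numbered 4 of 131, 0 of 134, 5 of 104, 1 of 111, 4 of 137, 2 of 104, 0 of 107 and 0 of 134. The bin from 2.5 to 3 Mb held 45 pseudogene-class entries and those from 5 to 6 Mb held 49 and 51, while the bins between 3 and 5 Mb held from 79 to 119. The bin from 4 to 4.5 Mb had the most pseudogene-class entries, 119 of 137. Within 10 kb of another entry of their kind lay 10 of the 16. The same share for other window entries was not counted and the spread was not tested, so clustering is not shown.

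**Figure D2:**
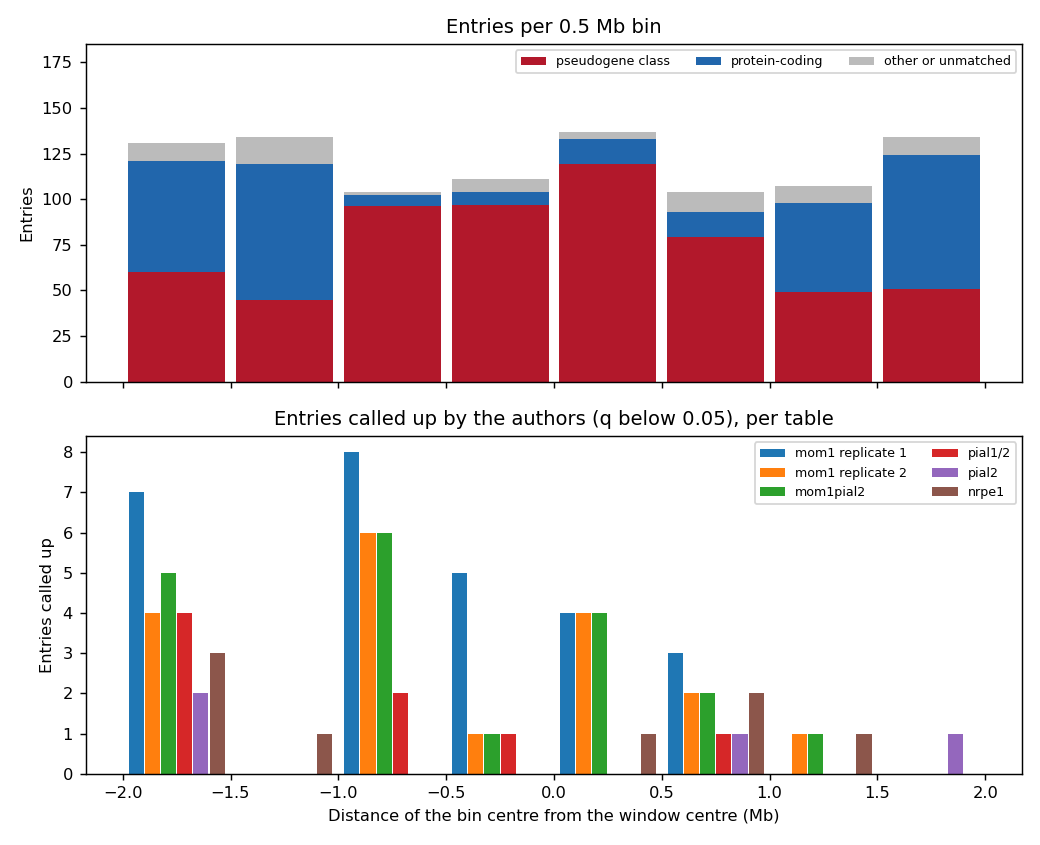
Number of entries by annotation class (upper panel) and number of entries called up by the authors in each of the 6 tables (lower panel), against distance of the 0.5 Mb bin centre from the window centre in Mb. Calls up in the mom1 and mom1pial2 tables lie in the first bin and in the 4 bins around the centre that hold 79 to 119 pseudogene-class entries, with 1 more each for mom1 replicate 2 and mom1pial2 in the bin to the east, and the second bin, with 134 entries, has 1 call up, in nrpe1.

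The first bin held a cluster of called entries at its western edge, between 2.01 and 2.08 Mb. AT4G04293 (chr4:2076832-2077361, pseudogene class) had 3.07 and 1.41 FPKM in WT. It had 419.5 and 202 FPKM in mom1 replicates 1 and 2, 209 in mom1pial2, 275 in pial1/2, 21.6 in pial2 and 77.4 in nrpe1. Every mutant library lay above both WT libraries, with pial2 the lowest of them. It rose in mom1 by 6.55 ± 0.20 (SD, n = 2; limma adjusted p = 0.0234), and it is the only window entry called up in all 6 of the authors' deposited tables, with differences of 6.43 in mom1pial2, 6.09 in pial1/2, 3.22 in pial2 and 4.27 in nrpe1. No 50-base stretch of it occurs elsewhere in the genome.

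AT4G04170.1 (chr4:2013697-2018328, pseudogene class) had 0.00627 and 0.0219 FPKM in WT, 10.0 and 7.52 in mom1, 6.17 in mom1pial2 and 3.96 in pial1/2. In pial2 it had 0.118 FPKM and in nrpe1 0.0314, close to WT. The difference in mom1 was 3.26 ± 0.28 (SD, n = 2), and its limma adjusted p of 0.0525 lay just above the threshold. With a minimum of 5 FPKM in place of 1 the limma adjusted p was 0.0356. With no minimum the limma adjusted p was 0.442, and without pairing it was 0.241. The entry reached either minimum in mom1 only, so its p-values after such a filter are no support. East of it, past AT4G04175.1, which was listed at 0 in all libraries but pial2 (0.0359 FPKM), lies AT4G04180, a protein-coding gene for a P-loop nucleoside triphosphate hydrolase. It had 2.19 and 1.42 FPKM in WT, 6.74 and 4.71 in mom1, 6.85 in mom1pial2 and 7.23 in pial1/2, and 2.07 in pial2 and 2.75 in nrpe1. The authors' deposited tables call it up in mom1 (both), mom1pial2 and pial1/2. Its mom1 difference was 1.26 ± 0.03 (SD, n = 2; limma adjusted p = 0.119), and it is the one protein-coding member of the 16.

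AT4G04223 (chr4:2036511-2037816) is a noncoding RNA. It had 1.25 FPKM in WT replicate 1 against 17.2 in mom1 replicate 1, 7.53 in pial1/2 and 20.6 in nrpe1, and 6.73 in WT replicate 2 against 41.5 in mom1 replicate 2, 28.9 in mom1pial2 and 3.06 in pial2. Only pial2 lay below its WT library, and the WT libraries differed from each other. The mom1 difference was 2.74 ± 0.40 (SD, n = 2; limma adjusted p = 0.0997). Of its 50-base stretches 66.4% occur elsewhere, and a copy of 1307 bases with 99.2% identity lies on chr3:20852494-20853800 inside AT3G56210. That gene had 11.2 to 16.0 FPKM in every library and was called in none of the authors' deposited tables, and how the authors' counting divided reads between the copies is not known. Between these members lay protein-coding genes that were not called, such as AT4G04210 with 26.4 and 18.2 FPKM in mom1 and AT4G04190 with 6.41 and 3.04.

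The 2 Mb edge lies just west of this cluster of called entries. The entry just outside it, AT4G04150.1, was listed at 0 in both WT libraries, at 0.0326 and 0.0606 FPKM in mom1 and at 0.0995 in pial1/2. AT4G04145 was listed at 0 in both mom1 libraries and in pial1/2, and had 0.00802 FPKM in WT replicate 2. Farther out, AT4G04140.1 had 0.033 and 0.00768 FPKM in WT, 0.154 and 0.0489 in mom1 and 0.188 in pial1/2. AT4G04130 was listed at 0 in all libraries but mom1 replicate 2 (0.0139) and mom1pial2 (0.0136), and none of these 4 entries was called in any table. Just inside, AT4G04155.1 was listed at 0 in all 8 libraries, and AT4G04167.1 was listed at 0 in WT, had 0.576 and 0.0909 FPKM in mom1, with a call up for mom1 replicate 1 in the authors' deposited table. At the 6 Mb edge the nearest entries on both sides were listed at 0.

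The entries between 3 and 5 Mb were nearly all at or near 0 in WT. Of the 16 entries called up in both mom1 tables, 10 were listed at 0 in WT replicate 1 and 7 in WT replicate 2, and 13 had under 0.1 FPKM in both. At least 1 FPKM in both mom1 libraries was reached by 10. An exact 0 in such a table can be a failed estimate, but these 16 entries were tested by the authors in both mom1 tables. No fold is given against a 0.

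Grouped by sequence (at least 90% identity over at least 900 bases), 10 of the 16 entries fell into 4 groups. The remaining 6 were AT4G04170.1, AT4G04180, AT4G04223, AT4G04293, AT4G06484 and AT4G06566.1. Near copies can exchange reads, so levels within a group are uncertain. Over the 16 entries, the share of 50-base stretches found elsewhere had a median of 25.8% and ran from 0% to 66.4%, and over the pseudogene class of the window its median was 9.81%. Under 10% was seen in 5 of the 16.

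The first group is the pair printed above. AT4G06615.1 (chr4:3283784-3284823) was listed at 0 in WT replicate 1 and at 0.0775 FPKM in WT replicate 2. It had 14.5 and 20.6 FPKM in mom1, 16.8 in mom1pial2, 1.11 in pial1/2 and 0.167 in pial2, and it was listed at 0 in nrpe1. The mom1 and mom1pial2 libraries stood far above all others, with pial1/2 between them and WT. It rose in mom1 by 4.14 (limma adjusted p = 0.0273), a size that depends on the pseudocount: with 0.1 in place of 1 the differences were 7.19 and 6.87. AT4G06718 (chr4:4017248-4018366) had 0.0304 and 0.0354 FPKM in WT, 4.81 and 4.62 in mom1, 5.99 in mom1pial2 and 0.741 in pial1/2, and 0.0381 in pial2 and 0.0304 in nrpe1. It rose in mom1 by 2.47 ± 0.04 (SD, n = 2; limma adjusted p = 0.0385), and the libraries fell in the same order of groups as for its copy. Both entries entered the fit through their mom1 levels only, so these p-values carry the limit given above. A further 78 places in the genome match AT4G06615.1 and 110 match AT4G06718 over at least 500 bases at 85% identity or more.

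The neighbours of that pair form the second group. AT4G06517.1 and AT4G06720 matched at 93.8% to 93.9% over up to 1478 bases. A longer and closer match of AT4G06517.1, 1944 bases at 97.4%, lies on chromosome 5. Each of the 2 entries matches 18 other places in the genome by the measure given above. AT4G06517.1 was listed at 0 in both WT libraries, at 1.30 and 1.74 FPKM in mom1, at 2.18 in mom1pial2 and at 0.0649 in pial1/2, and at 0 in pial2 and nrpe1. AT4G06720 was listed at 0 in both WT libraries and in nrpe1, and had 0.820 and 0.896 FPKM in mom1, 1.04 in mom1pial2, 0.137 in pial1/2 and 0.0211 in pial2. For both entries the mom1 and mom1pial2 libraries were the highest.

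AT4G07605 and its neighbour AT4G07586, the third group, matched at 92.2% over 1072 bases. AT4G07605 was listed at 0 in WT, pial2 and nrpe1, and had 5.96 and 3.88 FPKM in mom1, 3.60 in mom1pial2 and 0.195 in pial1/2. AT4G07586 was listed at 0 in the same libraries and had 1.01 and 0.622 FPKM in mom1, 0.776 in mom1pial2 and 0.0465 in pial1/2. For both, mom1 replicate 1 was the highest library, and pial1/2 lay below the mom1 and mom1pial2 libraries.

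The fourth group holds 4 long entries, AT4G06485, AT4G06506.1, AT4G07942.1 and AT4G08050.1, which matched at 92.0% to 95.4% over 915 to 2528 bases although they lie at separate places between 3.09 and 4.90 Mb. AT4G07942.1 had 0.0289 and 0.0224 FPKM in WT, 2.00 and 2.86 in mom1, 2.01 in mom1pial2, 0.314 in pial1/2, 0.0121 in pial2 and 0.00964 in nrpe1. AT4G08050.1 was listed at 0 in WT and had 0.952 and 0.973 FPKM in mom1 and 1.08 in mom1pial2. The other members stayed under 1 FPKM in mom1, with 0.351 and 0.412 for AT4G06485 and 0.670 and 0.948 for AT4G06506.1. The authors' deposited tables call all 4 up in both mom1 tables and in mom1pial2. AT4G06506.1 matches 240 other places in the genome and AT4G08050.1 matches 162, by the measure given above.

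Among the entries outside these groups, AT4G06566.1 was listed at 0 in WT replicate 1 and had 0.00733 FPKM in WT replicate 2, 2.99 and 1.60 in mom1, 2.29 in mom1pial2 and 0.456 in pial1/2. AT4G06484 was listed at 0 in WT, pial2 and nrpe1, and had 0.979 and 1.32 FPKM in mom1, 1.14 in mom1pial2 and 1.12 in pial1/2. For AT4G06484 the pial1/2 library lay within the range of the mom1 libraries, unlike the members of the 4 groups. Of its 50-base stretches 26.0% occur elsewhere, and it matches 140 other places in the genome by the measure given above. Its levels are therefore uncertain as well.

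**Figure D3:**
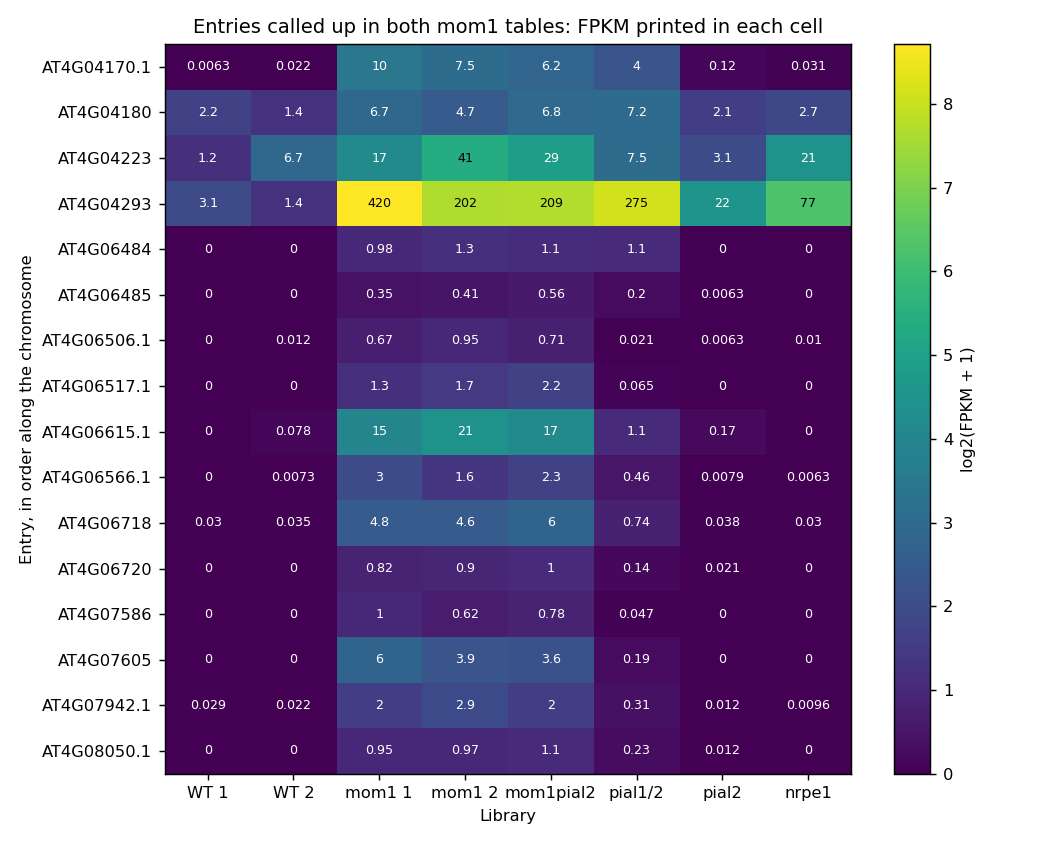
Level of the 16 entries called up in both mom1 tables (rows, in order along the chromosome) in the 8 libraries (columns), with colour for log2(FPKM + 1) and the FPKM printed in each cell. The mom1 and mom1pial2 cells lie above WT for every entry, from 0.351 FPKM (AT4G06485) up, pial1/2 is highest in the first 4 rows, with AT4G06484 at 1.12 and AT4G06615.1 at 1.11 below them, and the pial2 and nrpe1 columns are at or near 0 below the first 4 rows.

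In mom1pial2 the authors' deposited table calls 19 window entries up and 4 down among 215 tested (background 0.824% and 1.16%), and 17 were higher and 1 lower by at least 1 (0.63% and 0.504%). Of those tested, 8.84% were called up in the window, against 5.01% in the other pericentromeric windows. Higher by at least 1 were 1.77% of entries, against 1.40% there. All 16 entries called up in both mom1 tables were also called up in mom1pial2. Its table shares WT replicate 2 with the table of mom1 replicate 2. Against mom1 replicate 1, whose table shares no library with that of mom1pial2, 16 entries were called up in both. They make up 84.2% of the mom1pial2 list and 59.3% of the mom1 replicate 1 list. The same overlap over all entries was not counted, so these shares are not read as particular to the window. Within the tables of WT replicate 2, the difference of mom1pial2 was the smaller one for 7 of the 16 and the larger one for the others, and the medians over the 16 were 1.68 in mom1pial2, 1.41 in mom1 replicate 1 and 1.41 in mom1 replicate 2. With 1 library of mom1pial2 and a shared WT library this was not tested.

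In pial1/2 the authors' deposited table calls 8 entries up and 4 down among 212 tested (background 0.7% and 0.489%), and 8 were higher and 1 lower by at least 1 (0.495% and 0.316%). Of those tested, 3.77% were called up in the window, against 4.49% in the other pericentromeric windows. Higher by at least 1 were 0.832% of entries, against 1.20% there. All 8 window entries called up are also called up in the mom1 replicate 2 table, which shares no library with that of pial1/2. They make up 44.4% of that list, and the same overlap over all entries was not counted. The 8 were AT4G04170.1, AT4G04180, AT4G04223, AT4G04293, AT4G06484, AT4G06566.1, AT4G06615.1 and AT4G07942.1. All 16 entries had a higher level in pial1/2 than in WT, with a median difference of 0.45. For 14 of them the difference was smaller than in mom1 replicate 1, whose table shares its WT library. The 16 were chosen by their calls in mom1, which favours a smaller difference in any other mutant. Of them 10 were listed at 0 in WT replicate 1 and could not be lower, so these counts are description only. The 4 entries of the western cluster had the highest differences, from 1.37 for AT4G04180 to 6.09 for AT4G04293.

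In pial2 the counts were 4 called up and 2 down among 197 tested in the authors' deposited table (background 0.844% and 1.6%), and 3 higher and 1 lower by at least 1 (0.428% and 0.492%). As shares of the 962 entries these were 0.312% and 0.104%, both below the shares over all entries. In the other pericentromeric windows 0.341% were higher by at least 1. Of those tested there, 1.90% were called up, against 2.03% in this window. The window entries called up were AT4G04293 and the protein-coding genes MSRB6, ACS11 and AT4G09060. Over the 16 entries the median difference was 0.00. MSRB6, a methionine sulfoxide reductase, had 69.1 FPKM against 40.0 in WT replicate 2, and ACS11, an enzyme of ethylene synthesis, had 1.98 against 0.823.

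In nrpe1 the authors' deposited table calls 8 entries up and 5 down among 212 tested (background 1.2% and 0.67%), and 2 were higher and 0 lower by at least 1 (0.539% and 0.296%). Of those tested, 3.77% were called up in the window, against 3.32% in the other pericentromeric windows. Higher by at least 1 were 0.208% of entries, against 0.730% there. AT4G04293 and AT4G04223 were the 2 higher window entries, and they are the only entries of the 16 called up in nrpe1. Among the other calls, AT4G08016 had 0.514 FPKM and its neighbour AT4G08020.1 had 0.473, both listed at 0 in WT replicate 1. Their levels in mom1 replicate 1 were 0.385 and 0.378 and in mom1 replicate 2 were 0.0796 and 0.184. AT4G05585 had 0.397 FPKM in nrpe1, 0.00318 in WT replicate 1 and at most 0.0931 in the other mutants. The protein-coding genes called up were APR1, an enzyme of sulfate assimilation, and the kinase gene MEKK3, with 17.6 FPKM against 11.6.

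A pair of neighbouring pseudogene-class entries was called down in all 6 of the authors' deposited tables. AT4G08115.1 (chr4:5075027-5077893) had 1.04 and 0.861 FPKM in WT, 0.285 and 0.219 in mom1, 0.195 in mom1pial2, 0.170 in pial1/2, 0.248 in pial2 and 0.156 in nrpe1. AT4G08100.1 (chr4:5079652-5083590) had 0.677 and 0.674 FPKM in WT, 0.149 and 0.193 in mom1, 0.119 in mom1pial2, 0.121 in pial1/2, 0.158 in pial2 and 0.141 in nrpe1. For both, every mutant library lay below both WT libraries, and the mutants overlapped each other. Of the 50-base stretches of AT4G08115.1 17.2% occur elsewhere, and of those of AT4G08100.1 25.7%. By the measure given above, AT4G08115.1 matches 143 other places in the genome and AT4G08100.1 matches 5. The longest match of AT4G08100.1 has 3296 bases at 96.1% identity on chromosome 3. Copies can exchange reads, so these levels are uncertain too. On the log2(FPKM + 1) scale the mom1 difference of AT4G08115.1 was -0.64 ± 0.04 (SD, n = 2; limma adjusted p = 0.365), and AT4G08100.1 stayed under the minimum of the fit. Over all entries, 5 were called down and 10 up in all 6 tables.

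The neighbours of this pair differed among themselves. AT4G08112, to the west, had 0.148 and 0.149 FPKM in WT and 0.02 to 0.0492 in the mutants, and was called in none of the authors' deposited tables. AT4G08110 (chr4:5083926-5086640), which lies just east of AT4G08100.1 on the other strand, had 8.49 FPKM in both WT libraries and 8.53 to 9.26 in the mutants other than nrpe1, where it had 4.67 and was called down. That difference in nrpe1 was -0.74.

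**Figure D4:**
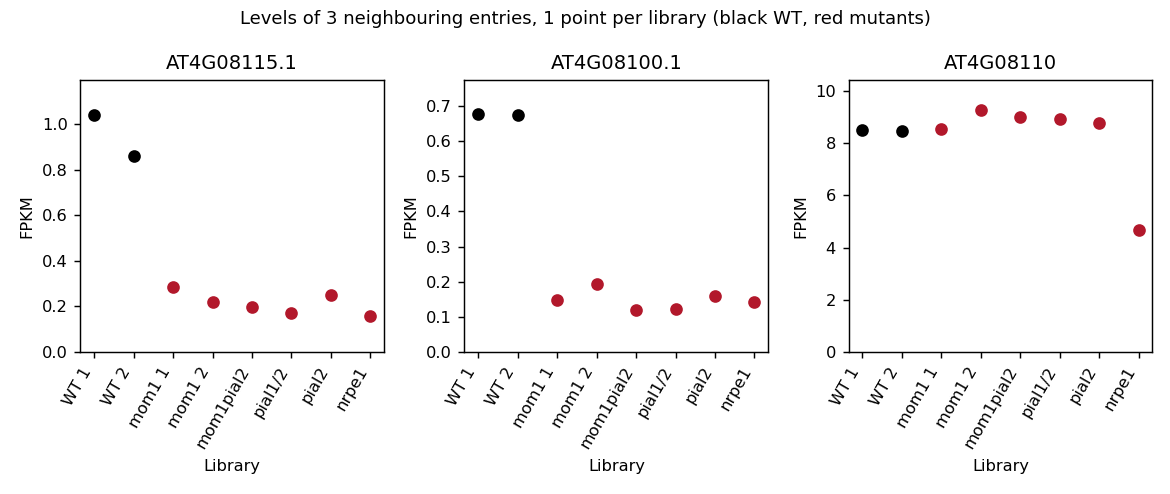
Level in FPKM (vertical axis, from 0) of 3 neighbouring entries in each of the 8 libraries, 1 point per library, with WT in black and mutants in red. AT4G08115.1 and AT4G08100.1 are lower in all 6 mutant libraries than in both WT libraries, while AT4G08110 is lower only in nrpe1, at 4.67 against 8.49 in WT.

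The authors' deposited tables call from 1 to 3 of the 298 up and from 0 to 2 down in each table, with 173 to 187 tested. The share of those tested that was called up ran from 0.549% to 1.72%, against 0.7% to 1.2% over all entries tested, so these counts are no result about protein-coding entries. The 3 entries with the highest WT levels were PSBQ-2, a subunit of the oxygen-evolving complex of photosystem II, ATPC1, a subunit of the chloroplast ATP synthase, and the polyubiquitin gene UBQ10. PSBQ-2 had 2038 and 1008 FPKM in WT and 2119 and 1076 in mom1, so the WT libraries differed more from each other than from their mom1 partners. ATPC1 had 839.7 and 549 FPKM in WT and 841 and 560.1 in mom1. For UBQ10 the levels were 695 and 935 FPKM in WT and 694 and 713 in mom1, and none of these 3 was called in any table.

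Of the mutated genes, MOM1 had 6.10 and 4.90 FPKM in WT, 1.61 and 1.15 in mom1 and 1.29 in mom1pial2. PIAL2 had 6.51 and 5.42 in WT, 2.13 in mom1pial2, 1.96 in pial2 and 4.79 in pial1/2, and PIAL1 had 11.8 and 8.27 in WT and 11.3 in pial1/2, so the transcript level does not separate pial1/2 from WT. NRPE1 had 4.61 and 3.01 FPKM in WT and 1.16 in nrpe1. In a list of 36 silencing genes, which holds these 4, all were fitted and 0 passed limma in mom1 (2 at an unadjusted p below 0.05, MOM1 and RDR2). The authors' deposited tables call 1 down in each mom1 table and in pial2, 2 in mom1pial2 and in nrpe1, and 0 in pial1/2, and 0 up in any table. ROS1, a DNA glycosylase of active demethylation, was the only one called down that is not a mutated gene, with 1.84 FPKM in nrpe1 against 16.1 in WT replicate 1. Of the tissue markers, the 4 leaf genes (RBCS1A, LHCB1.1, LHCB2.1 and PSBO1) had at least 1265 FPKM in every library and were highest for RBCS1A, at 9325 or more. The root gene PYK10 ran from 517 to 835 FPKM and was called in no table. PRP3, another root gene, ran from 21.6 to 36.7 FPKM and was highest in WT replicate 2, and the authors' deposited tables call it down in mom1 replicate 2 and pial2. THAS, a root gene of triterpene synthesis, ran from 3.45 to 13.7 FPKM with the same highest library, and was called down in mom1 replicate 2, mom1pial2 and pial2. The floral genes AG and AP3 stayed at or below 0.195 and 0.389 FPKM, SEP3 ran from 1.46 to 4.36, and none of them was called. The seed genes CRU3, OLEO1 and SESA3 were also highest in WT replicate 2, at 3.18, 2.63 and 3.57 FPKM. CRU3 was called down in mom1 replicate 2 and pial2, and SESA3 in these and in mom1pial2. All these calls are in tables against WT replicate 2, and the part of these markers in the results was not tested.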

How the data were processed

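Per the labels, mRNA of 8 seedling libraries was enriched with oligo(dT) beads. Per the submitters' processing notes, the authors used TopHat2 2.0.12 with Bowtie on TAIR10, Cufflinks 2.2.1 and Cuffdiff. Per the file headers, the deposited values are FPKM per entry for the 2 libraries of a table, with a p-value and q-value of the authors' test of these 2 libraries, which has no replicate check. The tables hold no counts, so depth in fragments is unknown, and strand and read length are not given in the sources used here. An entry was taken as called at a deposited q-value below 0.05.

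Differences are of log2 FPKM, to which 1 was added. The pair of mom1 differences was modelled with limma 3.58.1 under R 4.3.3, as an intercept with a two-sided test and Benjamini-Hochberg adjustment over 20564 entries, after a check on simulated data. Of 962 entries 947 matched the TAIR10.1 annotation by locus, and sequence was printed only where intervals were identical (725 entries). Repeats were counted as 50-base stretches found elsewhere on either strand, and copies were aligned with blastn 2.17.0 and Biopython 1.88. RefSeq TAIR10.1 is the source of all sequences. The entries, lists and regions were chosen with earlier results of these data known.

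The named entries are those past limma in mom1, the 10 with the largest mean mom1 difference among those called the same way in both tables, the 5 highest and lowest called in each other table, the 3 with the highest WT level, those called up in at least 4 tables, and the 3 highest and lowest differences between mom1pial2 and mom1 replicate 2. The other entries named here were chosen after their values were seen. Alternatives changed the pseudocount, the minimum FPKM, the centring, the pairing, the q threshold and the counting of shared intervals, and left out libraries.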

Additional observations from a re-analysis of the deposited data

How the results depend on the processing

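Of 70 counts recomputed under other settings, 53 stayed within 1.5 times the reported one, and 141 of 248 recomputed single-entry differences moved. Of 31 mean mom1 differences, 5 took the other sign when 1 mom1 table was left out, none of them past the limma threshold. Those of AT4G06477 (-0.60), AT4G06536 (0.03) and AT4G08870 (-0.20) became 0.01, -0.06 and 0.24 without replicate 2, and those of AT4G07820 (-0.07) and AT4G08040 (-0.16) became 0.35 and 0.43 without replicate 1. With no filter on low values limma called 0 of 962 window entries (44 up and 15 down at an unadjusted p below 0.05), and the cause was not tested. Same-numbered libraries deviated together across 20564 entries (r = 0.833), but the labels do not say that a number marks a shared batch, and with no replicate block limma called 0 window entries. Leaving out 1 library each, also without the block, gave 0 to 0, with the lone library of a group assumed to vary like the others. At a pseudocount of 0.1 the entries differing by at least 1 numbered 75 in mom1 replicate 1, 71 in mom1 replicate 2, 76 in mom1pial2, 49 in pial1/2, 29 in pial2 and 37 in nrpe1, and 38 were higher in both mom1 tables, because a low level then moves further. The split moved most in pial2, to 13 higher and 16 lower. Leaving out 1 mom1 table, calls up were 18 to 27 and entries higher by at least 1 were 16 to 16. Chosen after seeing the data, a minimum of 1 FPKM left 15 calls in mom1 replicate 1 and 8 in nrpe1, and leaving out entries with 10% or more of their stretches elsewhere left 5 of the 16. The tables do not give the depth, and 1 library a group gives no replicate check outside mom1.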

Other observations

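MIR397a (AT4G05105, a precursor of 107 bases) was listed at 0 in 6 libraries and at 35.0 FPKM in mom1 replicate 2 and 75.9 in mom1pial2, both compared with WT replicate 2. The authors' deposited tables call it in neither, with q = 0.967 in mom1 replicate 2 and 0.755 in mom1pial2, and its limma adjusted p in mom1 was 0.813. Its mature miRNA, which targets laccase transcripts, is encoded on the plus strand of chr4:2625960-2625980 and is printed in DNA letters with the seed, bases 2 to 8, in capitals.
ath-miR397a: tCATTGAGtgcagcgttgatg

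APR1 was called in opposite directions in the 2 mom1 tables of the authors, with 103 FPKM against 64.7 in WT replicate 1 and 162 against 261 in WT replicate 2. MSRB6 was called down in pial1/2 (19.2 against 28.3 FPKM) and nrpe1 (16.2) and up in pial2 (69.1 against 40.0), which are tables of different WT libraries. AT4G06477 had 0.121 and 5.12 FPKM in WT replicates 1 and 2, and was called down in the 2 tables of mom1 replicate 2 (1.63) and mom1pial2 (2.35). AT4G06483, a neighbour of AT4G06484, was listed at 0 in both WT libraries and had 0.0593 FPKM in mom1 replicate 1 but 1.24 in mom1 replicate 2 and 1.37 in mom1pial2. AT4G08145 had 0.0937 FPKM in WT replicate 2 against 1.39 in mom1 replicate 2 and 0.898 in mom1pial2, and was listed at 0 in WT replicate 1 and mom1 replicate 1. In these 5 entries the library set, 1 or 2, moved with the direction or the level, and its part was not tested.

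Short entries that the authors called in no table also differed. AT4G05049 (246 bases) was listed at 0 in both WT libraries and in nrpe1, and had 6.14 and 3.74 FPKM in mom1, 4.05 in mom1pial2, 2.34 in pial1/2 and 3.79 in pial2. AT4G07408 (189 bases) was listed at 0 in WT replicate 2, pial1/2 and mom1pial2, and had between 2.43 and 3.65 FPKM in the other 5.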
